A study of Xenopus laevis with 2 samples.

Results

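The extracellular matrix, its receptors and its remodelling enzymes were followed in dorsal posterior pieces of Xenopus laevis neurulae on an Affymetrix expression array. The genes were chosen by name: a probe set, the group of array features that reads 1 transcript, was a member when its single platform symbol named a collagen, laminin, nidogen, perlecan, integrin, fibronectin, fibrillin, fibulin, thrombospondin, tenascin C, SPARC, CCN protein, hyaluronan synthase, versican, aggrecan, syndecan, glypican, MMP, TIMP, ADAM, lysyl oxidase, lysyl hydroxylase or prolyl hydroxylase. Integrin subunits were taken only where the symbol held a number, so itgav was not a member. The rule took 120 of 15491 frog probe sets, and these read 83 of the 7531 genes named by a single symbol. Among RefSeq genes of Xenopus_laevis_v10.1 the same rule matched 276, and 82 of them had a member probe set. No member carried a laminin, perlecan or aggrecan symbol, so the basement membrane was represented by nidogen, collagen IV and collagen XVIII. This frog is allotetraploid, and a gene's copies on its long and short subgenomes, called homeologs, end in .L and .S.

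The series compared an array labelled Derriere depleted with an array labelled wildtype. Derriere, the product of gdf3, belongs to the secreted TGF-beta family ligands and helps form and pattern posterior mesoderm. For the first group, both dorsal blastomeres of the 4-cell embryo received 2 ng of antisense morpholino against Derriere on their lateral side, together with GFP. A morpholino is an antisense oligomer that keeps its target RNA from being translated or spliced. The second group was wildtype, and the sources used here do not say whether it was injected. Pieces of both groups were dissected at stage 18, and the labels describe them as mesoderm for the most part. The number of embryos pooled is likewise not stated in them. With 1 array a group, differences lack any replicate check, and neither a p-value nor an error between embryos can be given.

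The matrix is a scaffold of secreted proteins that cells lay down, bind and remodel. Collagens form fibrils, sheets and the sheath that stiffens the notochord, while fibronectin forms the fibrils over which mesoderm moves during frog gastrulation. Integrins, syndecans and glypicans sit in the cell membrane and bind matrix or growth factors. Matricellular proteins, among them the CCN proteins and thrombospondins, modulate signalling rather than build structure, and metalloproteinases cut what has been laid down.

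The values were MAS5 signals, a linear intensity for each probe set, with a median over the frog probe sets of 74.1 (labelled Derriere depleted) and 75.4 (labelled wildtype). The targeted transcript gdf3.S read 2318.6 (labelled Derriere depleted) and 552.0 (labelled wildtype). It was thus higher under the label that names its depletion. A morpholino need not lower its target's transcript, so this does not settle the labels, and every direction here belongs to the labels as given. All 10 presomitic mesoderm genes and all 8 notochord genes that were read passed the signal filter described next. Skeletal muscle genes passed for 11 of 18. Epidermal genes passed for 11 of 12, neural plate genes for 7 of 12, endoderm genes for 4 of 11 and neural crest genes for 3 of 7. Some markers of tissues other than mesoderm were thus read as well. Over all genes named by a single symbol, 4543 of 7531 passed, and the muscle and neural plate counts lie near that share. Of 10 primitive myeloid genes read, 1 passed. The frog control transcripts had more 3' than 5' signal in both arrays. Their 3' over 5' ratio was 3.54 (labelled Derriere depleted) and 4.74 (labelled wildtype) for beta-actin. It was 24.3 (labelled Derriere depleted) and 32.3 (labelled wildtype) for Gapd, and 126.3 (labelled Derriere depleted) and 206.5 (labelled wildtype) for a3Act. For a1Act it ran the other way, at 71.6 (labelled Derriere depleted) and 65.3 (labelled wildtype). The 5' signals of Gapd were 38.3 (labelled Derriere depleted) and 36.5 (labelled wildtype). Those of a3Act were 33.5 (labelled Derriere depleted) and 23.5 (labelled wildtype). These lay under the array medians, so small differences in them move the ratios, and the ratios do not rank the arrays by RNA quality. The part of RNA quality in the values below was not tested.

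Most matrix probe sets were dim at this stage. A probe set was kept where its mean signal over both arrays was at least 75, the median of all frog probe sets, and signals under 19.7 were raised to that floor. By this filter 45 of the 120 members, reading 37 genes, were kept (37.5%), against 57.1% of all probe sets with 1 symbol. Of the 75 dimmer members, 42 were under the floor in both arrays. The dimmest kept members were probe sets of sdc4.L, sdc2.L and ccn2.L, with mean signals of 79.7, 85.7 and 86.7. The brightest that missed the filter were those of adam10.S, thbs3.L and sdc2.S, at 69.4, 67.8 and 60.4. Among the kept members, 2 had a signal under 75 in 1 array and passed through the other, and ccn2.L was one of them.

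Differences in matrix signal were mostly small, and the larger ones lay on the low side of the array labelled Derriere depleted. The log2 ratio of that array over the array labelled wildtype was centred on the median of all 7747 kept probe sets. The kept members ranged from -1.27 to 0.41, with 27 below 0 and 18 above. Their median was -0.08, or 0.08 with a filter at the 75th percentile of mean signal, and their SD 0.38, beside 0.00 and 0.33 for all kept probe sets. Without col9a2.L and ccn2.L the other 43 had a median of -0.07 and an SD of 0.31. These 2 were left out for their low ratios. Dropping the extremes of any set lowers its SD, so 0.31 cannot be compared with the 0.33. At 2-fold or more, 2 members were lower, col9a2.L and ccn2.L, where 0.271% of all kept probe sets were. None of the 45 was 2-fold higher, where 0.349% of all kept probe sets were. At 1.5-fold, col8a1.S and ccn1.S joined them, so 4 were lower (3.38% of all kept probe sets) and 0 were higher (2.52% of all). Without the filter 2 of the 120 members were 2-fold lower and 0 higher, beside 0.523% and 0.355% of all 15491. The only error these arrays allow is technical: the log2 ratios of probe sets that read 1 gene had a pooled SD of 0.23 over 580 genes. In size, 22 of the 45 member ratios were under that SD, and without the share over all kept probe sets this count does not set the members apart. The SD comes from probe sets on the same 2 arrays, so it leaves out error between arrays and between RNA pools. A ratio above it is therefore not shown to exceed the error. A lower signal can come from fewer cells of a type or from less RNA per cell, which cannot be told apart in pieces of whole tissue.

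**Figure D1:**
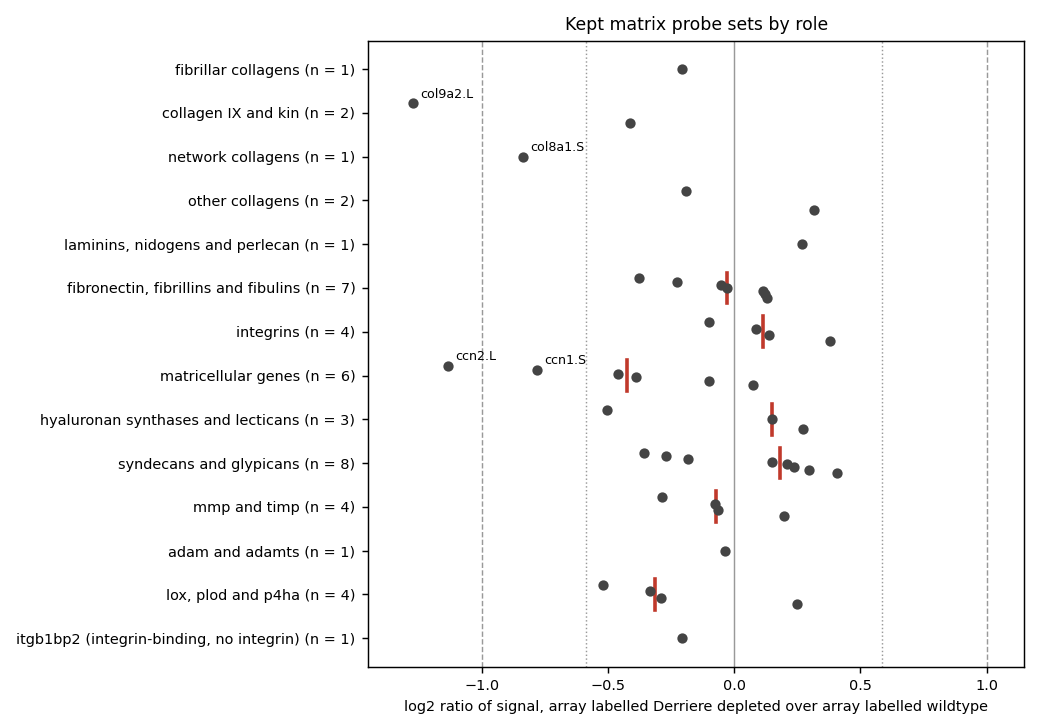
Log2 ratio of signal, array labelled Derriere depleted over array labelled wildtype (x axis), for the 45 kept matrix probe sets by role (y axis). Each point is 1 probe set, red bars are medians of groups with at least 3 points, dashed lines mark 2-fold and dotted lines 1.5-fold. The 4 named points, col9a2.L, ccn2.L, col8a1.S and ccn1.S, lie at or left of the left dotted line, and no point lies right of the right one.

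**Figure D2:**
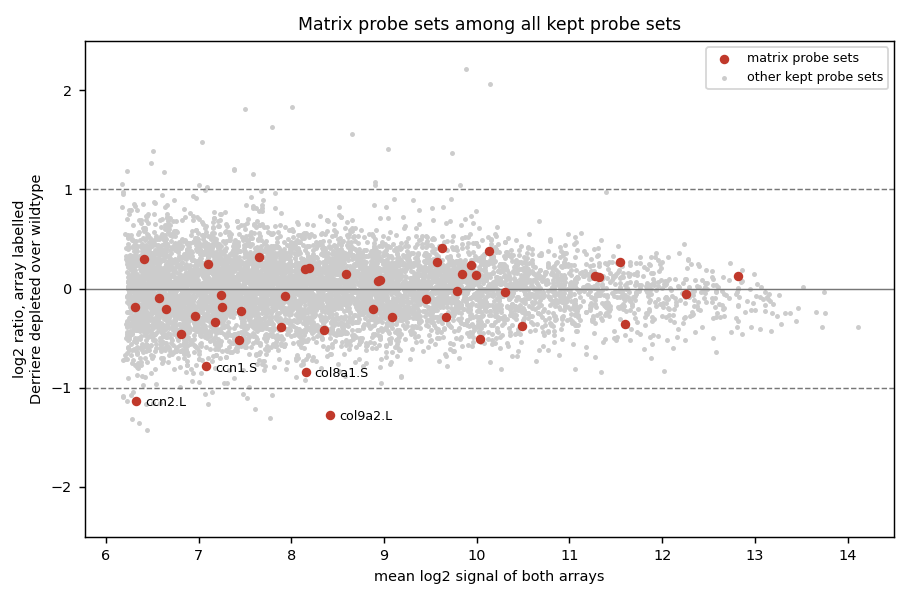
Log2 ratio (y axis) against mean log2 signal of both arrays (x axis) for the kept matrix probe sets (red) and all other kept probe sets (grey). Dashed lines mark 2-fold, and 5 grey points lie outside the plotted range. The red point of col9a2.L stands apart at a signal where few grey points reach 2-fold lower, and that of ccn2.L lies at the dim end.

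Among collagens, both kept chain genes of collagen IX and the collagen VIII gene col8a1.S read lower. Collagen IX coats the surface of collagen II fibrils in cartilage and in the notochord sheath. Its chain gene col9a2.L read 220.6 (labelled Derriere depleted) and 529.3 (labelled wildtype), a log2 ratio of -1.27. This was the fifth lowest ratio of all 7747 kept probe sets. When kept probe sets were split by mean signal into 4 bins of equal size, col9a2.L was the 1 probe set of 1936 in the third bin from the dimmest that was at least 2-fold lower. Another chain of the same collagen, col9a1.L, read 284.5 (labelled Derriere depleted) and 376.5 (labelled wildtype), a ratio of -0.41. Both chains were thus lower, by unequal amounts. The probe set of col9a1-b was under the floor in both arrays.

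The fibrillar partner of collagen IX differed less. For collagen II, the main fibrillar collagen of notochord and cartilage, the col2a1.S probe set read 93.7 (labelled Derriere depleted) and 107.5 (labelled wildtype), a ratio of -0.21 that is smaller than the SD between probe sets of a gene. The other fibrillar collagen probe sets, 7 for col1a1.S, col1a2.L, col3a1.S and col5a1.L, all missed the filter and read no more than 33.3 in either array. These include the collagens of later bone, skin and tendon.

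The network collagen col8a1.S, known from the matrix under endothelia, read 214.0 (labelled Derriere depleted) and 379.7 (labelled wildtype). Its ratio of -0.84 was the 46th lowest of the kept probe sets. The 4 probe sets of collagen IV, the sheet former of basement membranes, were dim, at no more than 31.7 in either array, and give no direction. The 2 of collagen VI were under the floor in both arrays.

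Collagen XVIII, a basement membrane collagen whose end is cleaved to endostatin, had ratios on opposite sides of 0 from its 2 copies. The long copy col18a1.L read 225.2 (labelled Derriere depleted) and 179.9 (labelled wildtype), a ratio of 0.32. The short copy col18a1.S read 143.7 (labelled Derriere depleted) and 162.9 (labelled wildtype), a ratio of -0.19 that is smaller than the SD between probe sets of a gene. The ratios of the copies differed by 0.50. Over the 524 genes with both copies kept, the median size of that difference was 0.21 and its 90th percentile 0.55. Nidogen, which links laminin to collagen IV, read 838.0 (labelled Derriere depleted) and 690.3 (labelled wildtype) for nid2.L, a ratio of 0.27. Over all collagens, 5 of the 6 kept probe sets were below 0 and their median was -0.31.

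**Figure D3:**
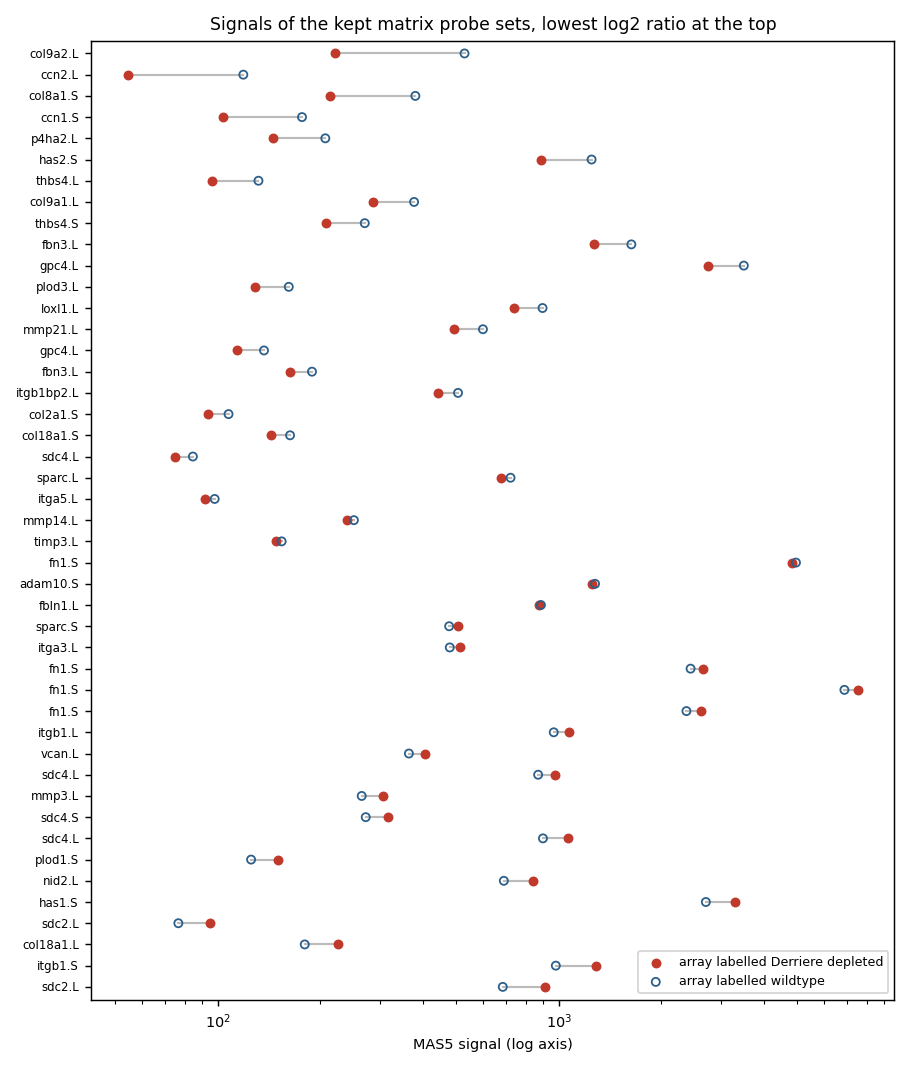
MAS5 signal on a log axis (x axis) of each of the 45 kept matrix probe sets (y axis), with the array labelled Derriere depleted as filled red points and the array labelled wildtype as open blue points. Rows run from the lowest log2 ratio at the top, col9a2.L at -1.27, to the highest at the bottom, sdc2.L at 0.41. The widest gaps between points are at the top.

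CCN proteins were the lowest of the matricellular group. CCN proteins bind integrins and growth factors, and in mammalian cells ccn1 and ccn2 are known transcriptional targets of YAP and, for ccn2, of TGF-beta. The kept ccn2.L probe set read 54.5 (labelled Derriere depleted) and 118.8 (labelled wildtype), a ratio of -1.13. It had the 11th lowest ratio of the kept probe sets, in the dimmest signal bin, where 12 of 1937 were at least 2-fold lower. A dimmer probe set of ccn2.L, marked by the maker as matching several transcripts, read 31.5 (labelled Derriere depleted) and 39.4 (labelled wildtype), a ratio of -0.33. The probe sets of this gene therefore gave the same sign and different sizes, and without the filter their mean was -0.72, which is under 2-fold. When the floor was replaced by a constant added to each signal, the kept probe set read -0.91.

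The related ccn1.S read 103.4 (labelled Derriere depleted) and 176.6 (labelled wildtype), a ratio of -0.78 that was the 66th lowest. The third CCN gene on the array, ccn3.L, was under the floor in both arrays. Both CCN genes that could be read thus had negative ratios.

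Of the thrombospondins, thbs4 was kept from both copies, and both had negative ratios. Thbs4 is a matrix protein of muscle and tendon attachments. Its long copy thbs4.L read 96.4 (labelled Derriere depleted) and 131.6 (labelled wildtype), a ratio of -0.46. The short copy thbs4.S read 207.4 (labelled Derriere depleted) and 269.8 (labelled wildtype), a ratio of -0.39. The 2 copies thus read within 0.07 of each other. Both probe sets of thbs3.L missed the filter, and they read 54.6 and 38.8 (labelled Derriere depleted) and 81.0 and 63.1 (labelled wildtype). Those of thbs1.L were under the floor.

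SPARC, a collagen-binding matricellular protein, hardly differed. The ratio was -0.10 for sparc.L and 0.08 for sparc.S, both smaller than the SD between probe sets of a gene. Of 2 dim tenascin C probe sets, one read 30.7 (labelled Derriere depleted) and 4.7 (labelled wildtype), where 4.7 is under the floor, and the other was under the floor in both arrays. Over the 6 kept matricellular probe sets the median was -0.42, and 5 were below 0. That median rests on dim probe sets: with the filter raised to the 75th percentile of mean signal, which left the SPARC probe sets alone, it was -0.018.

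Markers of skeletal muscle and of neural plate had negative median ratios too. Of 11 kept muscle marker genes 9 were below 0, with a median log2 ratio of -0.37 and a range from -0.78 to 0.07. The lowest was tnnt3.S, and the 2 above 0 were myod1.S at 0.07 and myod1.L at 0.06. Myf5.L was near 0 at -0.09. The summed signal of the muscle list over 23 probe sets was 12740.7 (labelled Derriere depleted) and 16292.0 (labelled wildtype). The 8 kept notochord markers had a median of -0.14 with 5 below 0, from foxa4.S at -0.72 to tbxt.S at 0.16. Their summed signal over 10 probe sets was 5319.4 (labelled Derriere depleted) and 5369.7 (labelled wildtype). Neural plate markers had 5 of 7 kept genes below 0 and a median of -0.22. The lowest were sox2.L at -0.60 and snap25.L at -0.55, and the 2 above 0 were sox3.S at 0.19 and sox3.L at 0.03. Their summed signal over 16 probe sets was 2757.5 (labelled Derriere depleted) and 3358.5 (labelled wildtype). Presomitic mesoderm markers were divided, with 5 of 10 below 0, 5 above and a median of -0.09. The lowest were ripply2.1.S at -1.30 and mespa.S at -0.68, and the highest msgn1.L at 0.21 and tbxt.S at 0.16. Their summed signal over 10 probe sets was 10810.8 (labelled Derriere depleted) and 11429.7 (labelled wildtype). Itgb1bp2.L, which the name pattern caught although it encodes melusin, a muscle protein that binds integrin, read 441.4 (labelled Derriere depleted) and 506.5 (labelled wildtype), a ratio of -0.21. The part of these tissues in the collagen, CCN and thrombospondin values was not tested.

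Fibronectin differed by less than the spread between probe sets of a gene. Its 4 probe sets, all for fn1.S, read log2 ratios between -0.05 and 0.13, with a mean of 0.08. One of them read 2657.7 (labelled Derriere depleted) and 2436.6 (labelled wildtype). Fibrillin, the backbone of microfibrils, was lower in both probe sets of fbn3.L. The brighter read 1266.9 (labelled Derriere depleted) and 1633.2 (labelled wildtype), a ratio of -0.38, and the dimmer gave -0.22. Fibulin fbln1.L, which binds fibronectin and basement membrane proteins, read 875.8 (labelled Derriere depleted) and 886.7 (labelled wildtype).

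Integrins were mostly below the reach of this array. Of 28 integrin probe sets, 24 missed the filter and 15 of these were under the floor in both arrays, so 4 of 16 member integrin genes were read. The integrin itgav.L, outside the name rule, had probe sets that missed the filter too. They read 56.2 and 19.3 (labelled Derriere depleted) and 39.3 and 10.7 (labelled wildtype). The shared subunit itgb1, which pairs with many alpha subunits including the fibronectin-binding itga5, had positive ratios in the kept probe set of each copy. The short copy itgb1.S read 1282.1 (labelled Derriere depleted) and 980.5 (labelled wildtype), a ratio of 0.38. The long copy itgb1.L read 1071.4 (labelled Derriere depleted) and 967.0 (labelled wildtype), a ratio of 0.14 that is under the SD between probe sets of a gene. A dimmer itgb1.L probe set read 60.2 (labelled Derriere depleted) and 59.7 (labelled wildtype), and with it the mean for itgb1.L was 0.08. The partner itga5.L read -0.10 and itga3.L, a subunit of a laminin-binding integrin of epithelia, 0.09. The kept itga5.L probe set was marked by the maker as matching several transcripts. A dimmer itga5.L probe set read 29.2 (labelled Derriere depleted) and 22.6 (labelled wildtype), and with it the mean for itga5.L was 0.14. No integrin therefore approached 1.5-fold in a kept probe set.

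Among the integrins that missed the filter, the vitronectin receptor subunit itgb3.L had probe sets that read 45.4 and 22.7 (labelled Derriere depleted) and 73.5 and 41.6 (labelled wildtype). They come from 1 design cluster that also holds probe sets annotated to timp3.L, so the gene behind these signals is uncertain. The kept timp3.L probe set of that cluster, for a matrix-bound inhibitor of metalloproteinases, read 148.0 (labelled Derriere depleted) and 153.9 (labelled wildtype), so the annotations did not share a ratio.

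Syndecans and glypicans carry heparan sulfate on the cell surface, and most syndecan probe sets read above 0 while both of the glypican gpc4.L read below it. Sdc2.L had the highest ratio of all kept members in its brighter probe set, which read 914.4 (labelled Derriere depleted) and 685.3 (labelled wildtype), a ratio of 0.41. Its dimmer probe set gave 0.30. Sdc4, which acts with fibronectin and in non-canonical Wnt signalling in frog gastrulation, had 4 kept probe sets. The short copy sdc4.S read 316.4 (labelled Derriere depleted) and 271.6 (labelled wildtype), a ratio of 0.21. The probe sets of sdc4.L gave 0.24, 0.15 and, for the dimmest, -0.18. The probe set at 0.24 was marked by the maker as matching several transcripts. In all, 5 of 6 kept syndecan probe sets were above 0, with a median of 0.22. These read only sdc2.L, sdc4.L and sdc4.S. That median, the sdc4.S ratio and the sdc4.L ratios of 0.15 and -0.18 were smaller in size than the SD between probe sets of a gene.

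Gpc4.L, a glypican that acts in convergent extension of the frog embryo, was lower in both of its probe sets. The brighter read 2739.7 (labelled Derriere depleted) and 3490.9 (labelled wildtype), a ratio of -0.36, and the dimmer gave -0.27. No gene of this surface class reached 1.5-fold. Among the dim members sdc1.L, sdc2.S, sdc3.L and gpc2.L read no more than 62.2 in either array.

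Markers of epidermis, endoderm and cement gland had positive median ratios, as the syndecans and itgb1 did. So did the neural crest list, at 0.14 with 2 of 3 kept genes above 0. Of these, tfap2a.L at 0.43 was also among the epidermal markers. The other, foxd3.S at 0.14, was under the SD between probe sets of a gene, and snai2.S was below 0 at -0.24. The blood and endothelium list gave no single direction. Its median of 0.20 came from 2 kept genes on opposite sides of 0, gata2.L at 0.64 and lmo2.S at -0.25. That list had a summed signal over 9 probe sets of 2734.2 (labelled Derriere depleted) and 3077.6 (labelled wildtype). Of 11 kept epidermal marker genes 8 were above 0, with a median log2 ratio of 0.43 and a range from -0.32 to 0.95. The highest, cdh1.S, read 101.2 (labelled Derriere depleted) and 52.0 (labelled wildtype), so it passed the filter only through the array where it was high. The 3 below 0 were dlx5.L at -0.32, itln1.L at -0.24 and krt12.4.S at -0.15. Of the list, itln1.L was the brightest, at 7025.5 (labelled Derriere depleted) and 8244.9 (labelled wildtype). The summed signal of the epidermal list over 12 probe sets was 14860.0 (labelled Derriere depleted) and 14262.3 (labelled wildtype), and 1 of 12 genes had all probe sets under the floor. All 4 kept endoderm marker genes were above 0, with a median of 0.64. Sox17a.L at 1.39 and sox17b.1.S at 1.14 were past 2-fold. Sox17a.L read 147.8 (labelled Derriere depleted) and 56.2 (labelled wildtype), so it passed the filter only through the array where it was high. A sox17b.1.S probe set that read 100.8 (labelled Derriere depleted) and 57.7 (labelled wildtype) did so too. The filter thus favours high ratios among such dim genes. Sox17a.S and both copies of gata6 missed it. The other kept endoderm genes, a2m.S at 0.04 and foxa1.S at 0.13, were under the SD between probe sets of a gene. Foxa1.S was also among the notochord markers. The endoderm list had a summed signal over 12 probe sets of 2164.4 (labelled Derriere depleted) and 1846.0 (labelled wildtype), and 4 of 11 genes had all probe sets under the floor. The hatching and cement gland list had 2 kept genes, with ag1.S past 2-fold higher and ag1.L at 0.10, and a summed signal over 7 probe sets of 962.4 (labelled Derriere depleted) and 770.4 (labelled wildtype). The part of these tissues in the syndecan and integrin values was not tested.

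**Figure D4:**
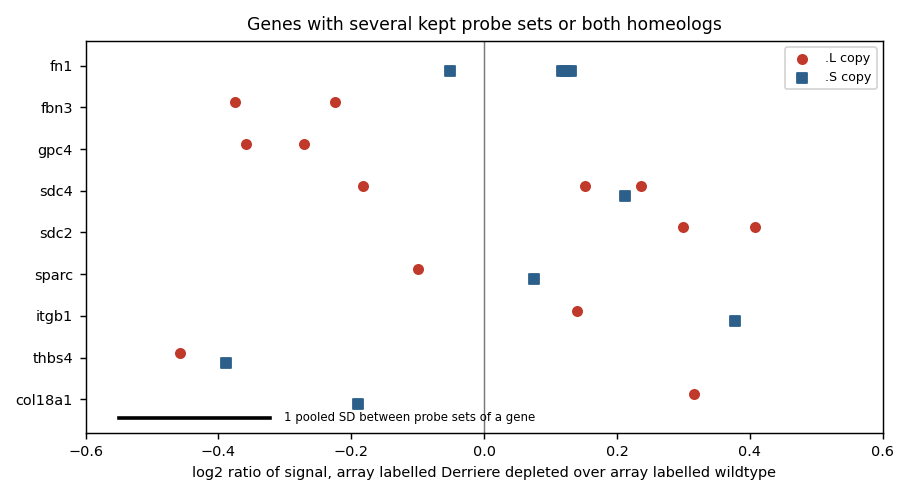
Log2 ratio, array labelled Derriere depleted over array labelled wildtype (x axis), of each kept probe set of the 9 matrix genes with several kept probe sets or both homeologs (y axis). Red circles are .L copies, blue squares .S copies, and the black bar is the pooled SD of 0.23 between probe sets of a gene. Probe sets of fbn3, gpc4, sdc2 and thbs4 lie on 1 side of 0, while those of col18a1, fn1, sdc4 and sparc fall on both.

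The enzymes that make hyaluronan, a large polysaccharide of embryonic matrix, read in opposite directions. Has2.S read 885.5 (labelled Derriere depleted) and 1248.4 (labelled wildtype), a ratio of -0.50. Has1.S read 3283.9 (labelled Derriere depleted) and 2701.7 (labelled wildtype), a ratio of 0.27. Versican, a proteoglycan that binds hyaluronan, read 405.7 (labelled Derriere depleted) and 363.5 (labelled wildtype) for vcan.L. The synthases therefore did not move together, and neither reached 1.5-fold.

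Enzymes that modify collagen inside the cell and crosslink it outside read lower in 3 of 4 genes, with a median of -0.31. P4ha2.L, a prolyl hydroxylase subunit that stabilises the collagen helix, read 145.3 (labelled Derriere depleted) and 206.7 (labelled wildtype), a ratio of -0.52. The lysyl hydroxylase plod3.L read 128.9 (labelled Derriere depleted) and 161.5 (labelled wildtype), a ratio of -0.33. Loxl1.L, an oxidase that prepares lysines for crosslinks, gave 737.5 (labelled Derriere depleted) and 896.5 (labelled wildtype), a ratio of -0.29. The exception was the lysyl hydroxylase plod1.S, at 0.25.

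Metalloproteinases and their inhibitors differed little where they could be read. Of 19 MMP and TIMP probe sets 15 missed the filter, and the kept ones had log2 ratios from -0.29 to 0.20. Mmp21.L, which is needed for left-right asymmetry in vertebrates, read 494.1 (labelled Derriere depleted) and 599.3 (labelled wildtype). Mmp14.L, the membrane-bound protease that activates another MMP, read 239.2 (labelled Derriere depleted) and 250.7 (labelled wildtype). Mmp3.L, a stromelysin, read 305.3 (labelled Derriere depleted) and 264.3 (labelled wildtype). The gelatinases mmp2.S, mmp9.1.S and mmp9.2.L and the myeloid mmp7.L never read above the floor.

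ADAM proteases were represented by 1 kept probe set. For adam10.S, the sheddase that cleaves Notch, it read 1253.5 (labelled Derriere depleted) and 1278.0 (labelled wildtype), a ratio of -0.04. The gene's 3 other probe sets, from another part of the design, read at most 76.1 in either array and missed the filter. Their inclusion moved the mean of adam10.S to -0.37. The 7 remaining ADAM probe sets read no more than 34.5 in either array.

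Below the filter the arrays differed in general, which limits what dim members can show. Of the 75 dim members, 51 (68.0%) had a lower signal in the array labelled Derriere depleted and 24 a higher one. Over all 7744 dim probe sets, 58.0% were lower there. Single dim signals, such as those of thbs3.L and itgb3.L, are therefore given as values only.

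Genes that work with the matrix but fall outside the name rule were described by lists. Over all 4543 kept genes, each taken as the mean of its probe sets, 0.374% were at least 2-fold higher and 0.242% at least 2-fold lower, and none of the kept genes of the 4 lists reached either. The list of collagen maturation genes had 11 kept genes, 7 below 0 and 4 above, with a median of -0.15. Its lowest was ppib.S, for a prolyl isomerase of the secretory pathway, which read 3146.5 (labelled Derriere depleted) and 4601.3 (labelled wildtype), a ratio of -0.56. Its homeolog ppib.L gave 0.06, so the copies did not share the difference. The collagen chaperone serpinh1.S read -0.22. The highest was creb3l2.L, a transcription factor of the secretory pathway, at 0.41.

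Other matrix genes had 6 kept genes, 5 below 0, with a median of -0.23. The microfibril gene mfap2.L read 126.5 (labelled Derriere depleted) and 181.8 (labelled wildtype), a ratio of -0.53, which is the same side as fibrillin. The link protein hapln3.L, which ties proteoglycans to hyaluronan, read -0.32, and ltbp1.S, which holds latent TGF-beta in the matrix, read -0.28. Dystroglycan dag1.L, a laminin receptor, was the exception at 0.24. The probe set of its homeolog dag1.S missed the filter, at 21.2 (labelled Derriere depleted) and 34.5 (labelled wildtype).

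The adhesion complex that joins integrins to actin was divided, with 12 of 23 kept genes above 0, 11 below and a median of 0.02. The actin crosslinker actn1 had the highest ratios: actn1.S read 216.4 (labelled Derriere depleted) and 134.3 (labelled wildtype), a ratio of 0.68, and actn1.L read 0.38. The scaffold bcar1.L was lowest at -0.49. The 7 kept genes of the Hippo list, chosen because YAP acts on ccn1 and ccn2 in mammalian cells, had a median of -0.06. The DNA-binding partners of YAP, tead1.S and tead4.S, read -0.09 and 0.00, and mob1a.L, a cofactor of the Hippo kinases, read 96.1 (labelled Derriere depleted) and 163.0 (labelled wildtype), a ratio of -0.77.

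The values of the members at both ends of the range depended little on the processing, with the exception of ccn2.L. Under the alternative settings col9a2.L ranged from -1.29 to -1.20, col8a1.S from -0.86 to -0.78 and ccn1.S from -0.78 to -0.68. For sdc2.L the gene mean was 0.35 and ranged from 0.32 to 0.41, and for itgb1.S the range was 0.36 to 0.39. By contrast ccn2.L ranged from -1.13 to -0.72. Several settings could not move col9a2.L, col8a1.S or ccn1.S, as each had 1 probe set with both signals above the floor. Their values were identical without a floor, with the higher floor, with the brightest probe sets and with the added members. The ranges cover processing only and leave out error between arrays and between RNA pools.

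**Figure D5:**
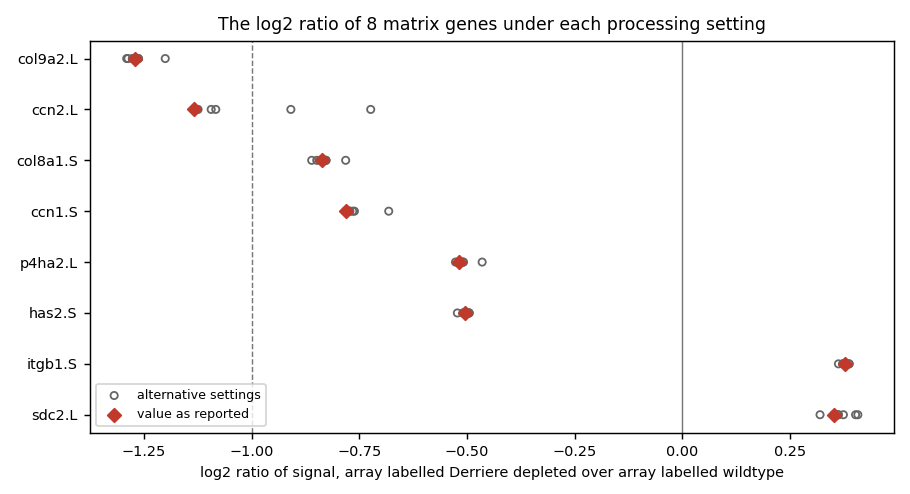
Log2 ratio, array labelled Derriere depleted over array labelled wildtype (x axis), of 8 matrix genes (y axis), as reported (red diamonds) and under each alternative setting that measured the gene (open circles). The dashed line marks 2-fold lower. The circles of ccn2.L spread across that line, between -1.13 and -0.72, while those of col9a2.L stay left of it.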

How the data were processed

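Total RNA was extracted with Trizol, and biotin-labelled cRNA was made from 6 µg, per the labels' protocols. The deposited intensities, 1 for each probe set, came from MAS5 per the submitters' processing notes. The sources used here state neither its version nor its scaling target, and hold no detection calls. Each array was grouped by its title. Of 15611 probe sets, 120 Affymetrix controls were left out.

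Probe sets were named from the platform annotation, and 119 of the 120 members had their Entrez ID in the RefSeq genes of Xenopus_laevis_v10.1. Probe sets with several symbols were not named. Near-identical homeologs can share signal.

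Signals were floored at the 25th percentile of both arrays and turned to log2, and probe sets with a mean signal at or above the median were kept. Log2 ratios were centred by their median, a shift of 0.0089. With 1 array per group nothing was tested, and calls follow fixed sizes of 2-fold and 1.5-fold. Genes were named by a rule: kept members past 1.5-fold, the highest and lowest of each role, members with several probe sets or both homeologs, and the ends of each list. Dim members and itgb1bp2.L were described to account for every member. The members, lists and rules were chosen with earlier results of these data known.

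Python 3.11.15, numpy 2.4.6, pandas 2.3.3 and statsmodels 0.14.6 were used, with figures from matplotlib 3.10.9. Simulated arrays with known changes, all larger than 2-fold, served to test the procedure. Recovery of smaller changes was not tested. Precision is limited by the number of arrays and by signal over background.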

Additional observations from a re-analysis of the deposited data

How the results depend on the processing

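Alternatives covered the floor (none, the 40th percentile, or a constant added instead), the centring (none), the normalization (quantile, or loess against mean signal), the signal filter (none, or the 75th percentile), the size threshold (1.5-fold or 3-fold), each gene's brightest probe set, and membership, with 4 more probe sets whose several symbols all match the rule. No member was 2-fold higher under any of them. The count of 2 lower members was 1 with the added constant and 1 with the stricter filter, which leaves 28 members, 4 at 1.5-fold and 0 at 3-fold. The matricellular median was -0.018 with the stricter filter, which leaves the SPARC probe sets alone. Without a filter the members' median was 0.00, which gives no sign, as 42 of the 120 members had equal floored signals in both arrays. With the stricter filter the members' median was 0.08, so it has no stable sign. The median of the fibronectin, fibrillin and fibulin group also turned, to 0.03 under quantile normalization and under loess and 0.04 with the stricter filter, and that of the adhesion list to -0.06 without a filter. The ratio of sdc4.L minus sdc4.S turned to 0.02 with the brightest probe sets, and itga5.L to 0.14 without a filter. No paired analysis was possible because there was a single array per condition, and leaving out a replicate was not possible either. Depth limits the dim members most: at signals near the floor no direction can be read.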
